A study of Mus musculus with 19 samples.

Results

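The 7 genes described here encode or control the major histocompatibility complex (MHC) class II route of antigen presentation in the mouse. They were chosen by name (Cd74, H2-Aa, H2-Ab1, H2-Eb1, H2-DMa, H2-DMb1 and Ciita) out of 48709 genes counted in RNA of the CA1 region of the hippocampus. All 7 passed the filter on low counts, under which 50% or more of the 19 libraries had to hold 5 reads or more and which left 19286 genes to test. The young group held mice of 3 months (n = 6), and both old groups held mice of 16.5 months (old control, n = 6, and old anti-miR-mix, n = 7). Old anti-miR-mix mice received lipid nanoparticles with a mixture of inhibitors of 3 microRNAs in the dorsal hippocampus, while young and old control mice received scrambled control oligonucleotides by the same route. Per the labels and the study's methods, all groups were male wild-type mice of the C57B/6J strain, so every group carried an injection and no uninjected group was analysed here. The question addressed here was how class II transcripts differ with age and with the inhibitor mixture.

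MHC class II molecules are cell surface pairs of an alpha and a beta chain that carry peptides from ingested proteins and show them to CD4+ T cells. H2-Aa and H2-Ab1 encode the alpha and beta chains of the I-A molecule, and H2-Eb1 encodes the beta chain of the I-E molecule, whose alpha chain is not made in this strain because of a deletion in its gene. Cd74, the invariant chain, escorts the newly made pairs to endosomes and fills their groove until H2-DM, a pair of H2-DMa and H2-DMb1, exchanges the remaining fragment for peptide. Ciita is the coactivator that switches the family on, by joining the RFX, CREB and NF-Y proteins bound to the X and Y boxes of class II promoters. In the brain, class II is known from macrophages of the meninges and vessels, from dendritic cells and from microglia in activated states.

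The inhibited microRNAs are short RNAs that pair, mainly through bases 2 to 8 (the seed), with sites in a transcript's untranslated 3′ end (3′UTR) and reduce its output. Their mature sequences are shown since they define the treatment, with the seed in capitals and in the RNA alphabet (RefSeq, GRCm38.p6).
miR-146a-5p: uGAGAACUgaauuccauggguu
miR-148a-3p: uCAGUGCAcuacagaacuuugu
miR-181a-5p: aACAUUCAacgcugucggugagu
The 3 seeds differ from each other. Of the 21 combinations of a member with a seed, 5 had a match of 7 bases in an annotated 3′UTR, and no member had more than 1 match to the same seed. Cd74 and H2-Ab1 each held a match to the miR-181a-5p seed, H2-DMa held 1 to miR-148a-3p, and Ciita held 1 to miR-146a-5p and 1 to miR-148a-3p. H2-Aa, H2-Eb1 and H2-DMb1 held none. Among 15351 tested genes with an annotated 3′UTR, 13.4% held the miR-146a-5p match, 15.8% the miR-148a-3p match and 19.2% the miR-181a-5p match. The 4 matches on chromosomes 16 and 17 are shown with their flanks to set them beside the values below, with the match in capitals.
Ciita (miR-146a-5p): ccacacctAGTTCTCagattctg
Ciita (miR-148a-3p): agtttctgTGCACTGcgtatgta
H2-DMa (miR-148a-3p): tttactccTGCACTGtgacacac
H2-Ab1 (miR-181a-5p): gtaagaccTGAATGTctctgctc
These are matches of letters and no measure of binding.

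Class II promoters are known to share the X and Y boxes, so the promoter table of RefSeq (250 bases before to 50 after each start, GRCm38.p6) was searched on both strands for an X-box core, CTNGNAAC, that is followed within 40 bases by a Y-box core, TGATTGG, counted from start to start. The windows of H2-Aa, H2-Eb1, H2-DMb1 and H2-DMa were examined singly, and the table held none for H2-Ab1 or Ciita. The stretch that holds both cores is printed for the 3 members that had it, 5′ to 3′ on the strand of the gene, with the cores in capitals.
H2-Aa (chr17:34287861-34287913, minus strand): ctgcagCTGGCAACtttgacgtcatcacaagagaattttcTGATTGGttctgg
H2-Eb1 (chr17:34305767-34305818, plus strand): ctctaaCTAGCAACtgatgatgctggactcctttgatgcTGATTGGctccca
H2-DMb1 (chr17:34153088-34153140, plus strand): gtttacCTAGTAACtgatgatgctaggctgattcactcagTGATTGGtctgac
The cores were separated by 26, 25 and 26 bases and the X core began 84, 94 and 97 bases before the start that RefSeq gives for the window. For H2-DMb1 that start lies downstream of the outermost GENCODE start given below, so its stretch is inside the annotated gene. Both windows of H2-DMa held neither core. Of 32851 promoter windows, 13.2% held the X core, 7.82% the Y core and 28 (0.0852%) the pair in this order, among them those of H2-Ob, a class II related chain, and of Rfx5, a protein that binds the X box. Apart from these and the 3 members, the genes with the pair, such as Plk1, Dnmt1 and Ubb, were on none of the class II lists used here. Cd74, which was not examined singly, was not among the genes with the pair. The letters of both cores were chosen after these sequences had been read, and a match is a description of the sequence.

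In GENCODE M21 (GRCm38), 5 of the members lie in the MHC region of chromosome 17, namely H2-DMa (34119541 to 34139101, plus strand), H2-DMb1 (34153072 to 34160230, plus), H2-Ab1 (34257689 to 34269419, plus), H2-Aa (34282744 to 34287823, minus) and H2-Eb1 (34305867 to 34316674, plus). Cd74 lies on chromosome 18 (60803848 to 60812652, plus) and Ciita on chromosome 16 (10480059 to 10528418, plus). All 7 are protein-coding genes, and the counts cover their exons, untranslated parts included. The labelled kit, TruSeq RNA v2, is not one that marks strand, and the strand setting of the counting is not given in the sources used here, which matters for 2 members. Exons of H2-DMa shared 360 of 3448 bases with Brd2 on the other strand, a gene of 5558 to 8252 reads per library, and exons of Ciita shared 329 of 9535 bases with Dexi, which had 720 to 1283 reads. Over the shared bases, the H2-DMa and Ciita counts may therefore include reads of these neighbours or lack reads of their own, and their values carry that limit. The I-E alpha chain locus, annotated as H2-Ea-ps, had 0 reads in all 19 libraries, a count that allows up to 3 reads in each.

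Libraries held 26653511 to 38908947 reads. Summed markers of CA1 pyramidal neurons lay between 687 and 985 CPM (read counts scaled to the same library total), against 57.1 to 69.7 CPM for CA3 markers and 32.0 to 94.4 CPM for dentate granule markers. The lists hold different genes and no library of another region was compared, so these sums do not test the labelled region. The log2 table deposited beside the counts had been adjusted by a number from 1 to 4 for each library, and libraries that share a number are called a processing group here. Processing group 3 held 3 old anti-miR-mix, 2 young and 0 old control libraries, so processing group and treatment were partly confounded. Old control replicates 5 and 6 were closer to each other (chi-square per degree of freedom 2.18 over 12780 genes) than any other pair of a group (6.10 or more). They were kept as separate libraries, with their sum as an alternative. The labels do not state that each library came from another animal, and p-values measure the spread between libraries.

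Class II transcripts were higher in old anti-miR-mix than in old control libraries for the invariant chain and the I-A alpha chain, and the estimates for both beta chains were of similar size without passing the test. In edgeR's quasi-likelihood test with Benjamini-Hochberg adjustment over all genes, 2 of 7 members (Cd74 and H2-Aa) were called higher and 0 lower, against 0.669% of all genes called higher. At an unadjusted p under 0.05 in edgeR, 5 of 7 were higher, against 7.16% of all genes. The members' median log2 fold change was 1.36, while that of all genes was 0.00. No member had values in one group that lay wholly outside those of the other, a separation seen in 0.498% of all genes in either direction. Since tissue was sequenced in bulk, more cells with class II transcripts and more transcripts per cell cannot be told apart.

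Cd74 had the highest level per length of the 7 genes, with 4.05 ± 0.745 RPKM (CPM divided by the exon length in kilobases, SD, n = 6) in old control and 11.1 ± 6.75 RPKM (SD, n = 7) in old anti-miR-mix libraries. In CPM, old control libraries ran from 5.42 over a median of 6.68 to 8.53, and old anti-miR-mix libraries from 6.23 over a median of 15.4 to 40.8. Old anti-miR-mix replicate 1 (6.23 CPM, 184 reads) lay inside the old control range, and the other 6 libraries lay above all old controls, with replicate 3 (40.8 CPM, 1588 reads) and replicate 4 (25.5 CPM, 842 reads) at the top. The log2 fold change was 1.46 (SE 0.31, edgeR adjusted p = 0.0306).

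H2-Aa, the I-A alpha chain, ran from 1.76 over a median of 2.97 to 4.29 CPM in old control and from 2.10 over 7.53 to 17.4 CPM in old anti-miR-mix libraries. Replicate 1 again sat among the controls and replicates 3 and 4 (17.4 and 15.7 CPM) stood above the rest, whose values were between 6.02 and 8.39 CPM. The log2 fold change was 1.60 (SE 0.35, edgeR adjusted p = 0.0345), a 3.04-fold difference. Its partner H2-Ab1, the I-A beta chain, ran from 0.995 over 2.09 to 3.33 CPM in old control and from 1.56 over 4.97 to 10.9 CPM in old anti-miR-mix libraries. The order was the same, with replicate 1 inside the control range and the other 6 libraries above it. The log2 fold change of H2-Ab1 was 1.43 (SE 0.34, edgeR adjusted p = 0.0605), which did not pass the threshold. H2-Eb1, the I-E beta chain, ran from 1.36 over 2.07 to 3.18 CPM in old control and from 1.86 over 4.35 to 10.6 CPM in old anti-miR-mix libraries, with replicates 3 and 4 (10.6 and 10.4 CPM) above the rest and replicate 1 again among the controls. Its log2 fold change was 1.36 (SE 0.33, edgeR adjusted p = 0.0632), again short of the threshold.

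**Figure D1:**
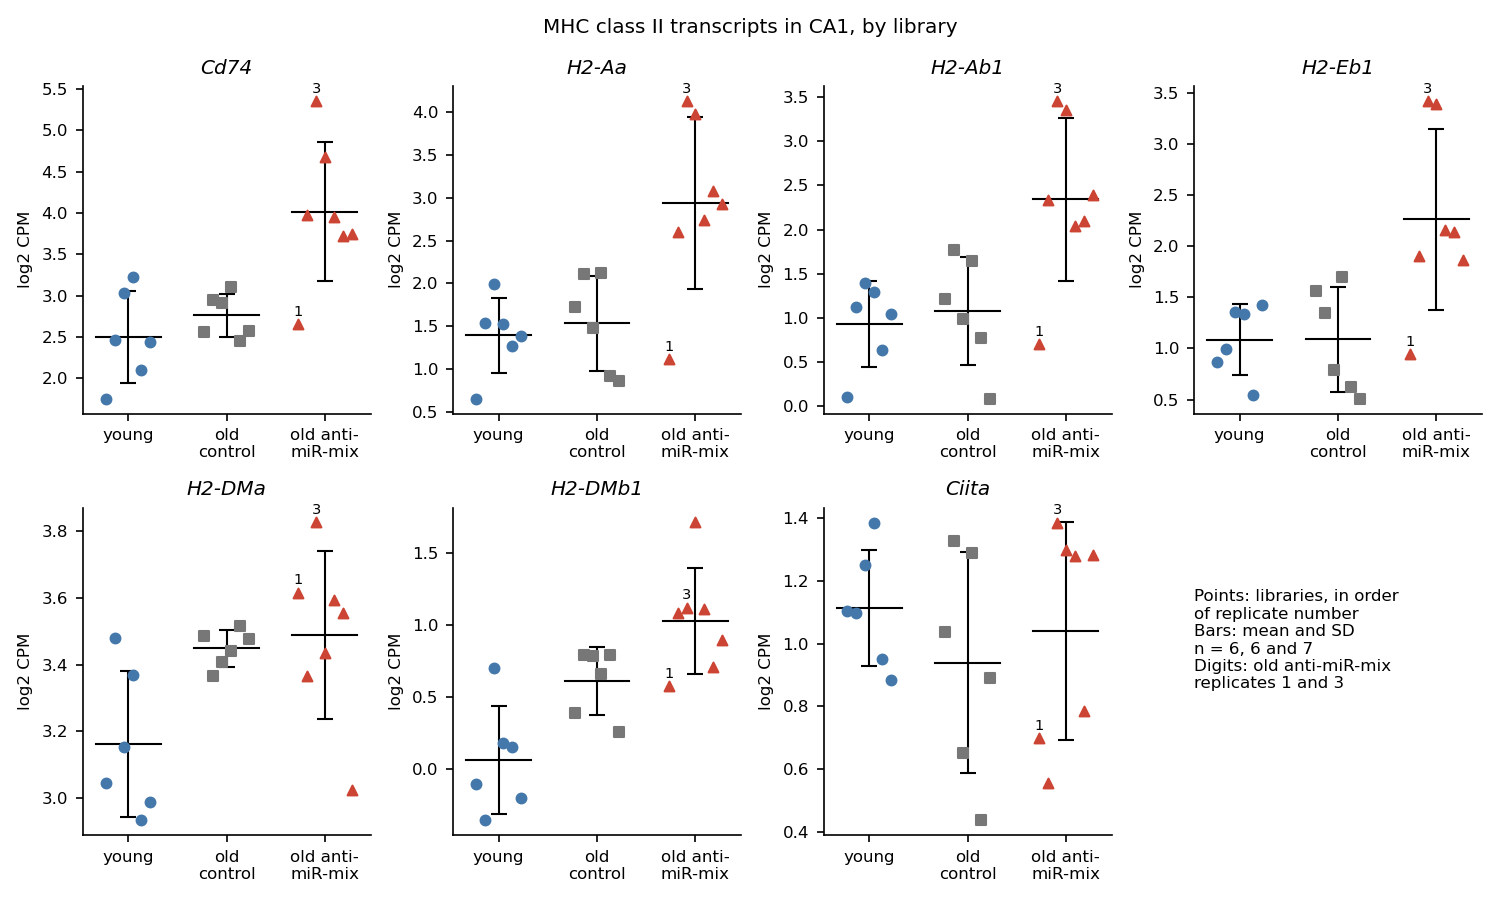
Log2 CPM of the 7 members in each library, by group, with the mean and SD (7 libraries for old anti-miR-mix, 6 for each other group); the vertical axis differs between panels. In the upper row, 6 of the 7 old anti-miR-mix libraries lie above all old control libraries and replicate 1 lies among them, while Ciita overlaps across all 3 groups.

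Calls of the treatment comparison were sensitive to single libraries. The Cd74 call was lost without any of old control replicates 1, 2, 5 and 6 or old anti-miR-mix replicates 2, 3, 4 and 5, and the H2-Aa call was lost without any of these or old control replicate 3, while log2 fold changes stayed between 1.14 and 1.61 for Cd74 and between 1.36 and 1.78 for H2-Aa. Their edgeR adjusted p over these omissions rose to at most 0.0983 and 0.114. Conversely, H2-Ab1 and H2-Eb1 were called without old anti-miR-mix replicate 1 (log2 fold changes 1.59 and 1.51, edgeR adjusted p = 0.00843 and 0.0107) and without replicate 6 (1.49 and 1.41, edgeR adjusted p = 0.0399 and 0.0459). DESeq2 called Cd74, H2-Aa, H2-Ab1 and H2-Eb1 (adjusted p between 0.0041 and 0.0212). Without old anti-miR-mix replicates 3 and 4 together, 0 members were called, and only 9 of all 19286 genes. The log2 fold changes were then 0.91 for Cd74, 1.03 for H2-Aa, 0.86 for H2-Ab1 and 0.71 for H2-Eb1.

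Within processing groups, old anti-miR-mix libraries were higher in groups 2 and 4 and not in group 1. The difference in mean log2 CPM of Cd74 was -0.10 in group 1 (1 against 2 libraries), 0.85 in group 2 (2 against 2) and 1.21 in group 4 (1 against 2). For H2-Aa the differences were -0.80, 0.97 and 2.19, for H2-Ab1 they were -0.79, 1.04 and 1.68, and for H2-Eb1 they were -0.51, 0.64 and 1.58. The only old anti-miR-mix library of group 1 is replicate 1, so processing group and library cannot be told apart there, and group 3, with the highest values, had no old control. With processing group as a factor in the edgeR fit, 0 members were called, and only 9 of all 19286 genes. The log2 fold changes in that fit were 0.79 for Cd74 (SE 0.22, edgeR adjusted p = 0.290), 1.02 for H2-Aa (SE 0.34, adjusted p = 0.546), 0.85 for H2-Ab1 and 0.79 for H2-Eb1. Without the 5 libraries of group 3, these log2 fold changes were 0.83, 0.99, 0.85 and 0.62, and 0 members and 0 of all 19286 genes were called.

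**Figure D2:**
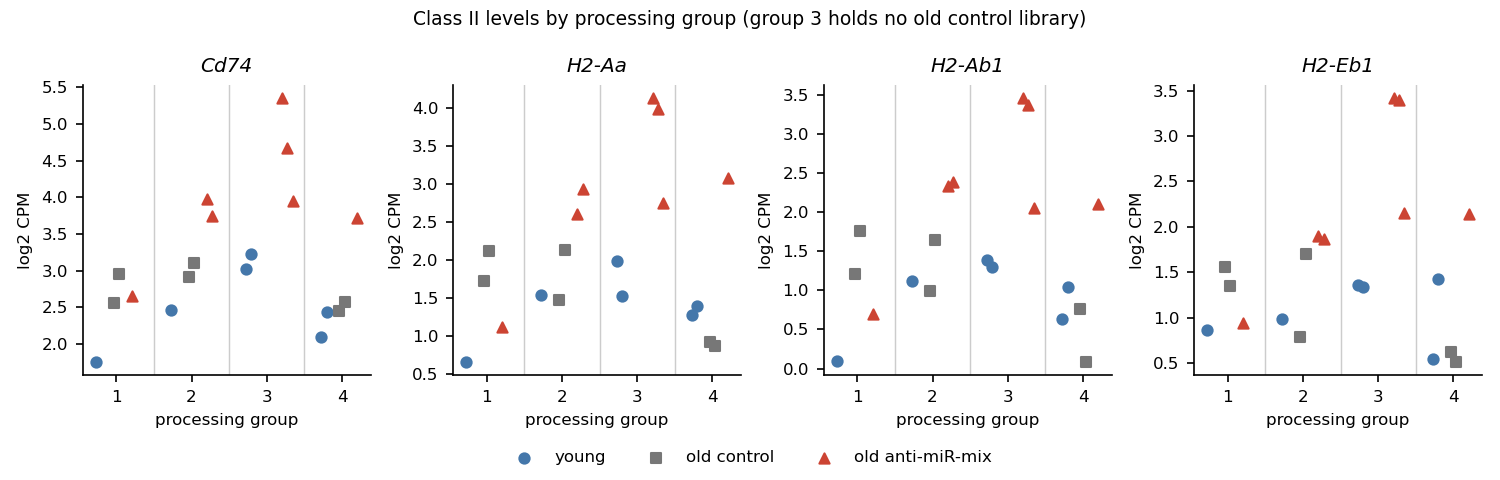
Log2 CPM of Cd74, H2-Aa, H2-Ab1 and H2-Eb1 by processing group, with a symbol for each of the 3 groups. Old anti-miR-mix libraries lie above the old controls of their processing group in groups 2 and 4; in group 1 the single treated library lies between or below its controls, and group 3 has no old control library.

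Neither chain of the peptide exchange factor H2-DM was called with treatment. H2-DMa ran from 10.2 over a median of 10.9 to 11.4 CPM in old control and from 8.07 over 11.7 to 14.1 CPM in old anti-miR-mix libraries, and the treated range enclosed that of the controls. Its log2 fold change was 0.06, with a 95% interval from -0.15 to 0.27. H2-DMb1 ran from 1.13 over 1.59 to 1.67 CPM in old control and from 1.42 over 2.05 to 3.21 CPM in old anti-miR-mix libraries, and 5 of the 7 treated libraries lay above all controls. Its log2 fold change of 0.47 (SE 0.18, edgeR adjusted p = 0.338) did not pass the test.

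Ciita, the coactivator of the family, was measured at 39 to 99 reads per library. It ran from 1.29 over 1.89 to 2.44 CPM in old control and from 1.41 over 2.36 to 2.55 CPM in old anti-miR-mix libraries. Replicates 3 and 4, the highest for the class II chains, had 2.55 and 2.39 CPM of Ciita, close to the highest old control library (replicate 2, 2.44 CPM), and the ranges overlapped. The log2 fold change was 0.11 with a 95% interval from -0.23 to 0.45 (edgeR adjusted p = 0.876), so at this depth no difference was detected and a change over 0.45 lies outside the interval. With processing group as a factor, the estimate was -0.08 for Ciita and -0.02 for H2-DMa, so the sign of neither is settled.

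With age, no member was called in the main fit. In old control against young libraries 0 of 7 members passed the adjusted threshold in edgeR, where 1.32% of all genes were called higher, and 0 passed in DESeq2. At that share, 0 calls among 7 genes do not set the members apart from other genes. At an unadjusted p under 0.05 in edgeR, 2 of 7 (H2-DMa and H2-DMb1) were higher, against 9.14% of all genes, and 0 of 7 had groups that did not overlap, against 2.54%. The median log2 fold change over members was 0.18, and over all genes 0.01. Cd74 ran from 3.31 over a median of 5.41 to 9.30 CPM in young libraries, a range that enclosed all 6 old controls. Its log2 fold change with age was 0.18 with a 95% interval from -0.52 to 0.87. H2-Aa had 1.51, 2.68 and 3.90 CPM as lowest, median and highest young value, H2-Ab1 had 1.01, 2.05 and 2.55 CPM, and H2-Eb1 had 1.39, 2.20 and 2.62 CPM. Their log2 fold changes were 0.17, 0.18 and 0.05, each with an interval that spans 0, and that of H2-Eb1 turned negative when any of 4 single libraries was left out.

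Both H2-DM chains showed their lower values in young libraries. H2-DMa ran from 7.58 over 8.51 to 11.1 CPM in young libraries and from 10.2 CPM upward in old controls, a log2 fold change of 0.28 (SE 0.11, edgeR adjusted p = 0.169). H2-DMb1 ran from 0.716 over 0.954 to 1.56 CPM in young libraries, with a log2 fold change of 0.53 (SE 0.20, edgeR adjusted p = 0.161), and all 6 old controls lay above the young median. Within processing groups 1, 2 and 4 the age difference of H2-DMb1 was 0.70, 1.08 and 0.55 on the log2 CPM scale, and that of H2-DMa was 0.38, -0.05 and 0.53. With processing group as a factor, H2-DMb1 was called higher with age (log2 fold change 0.76, SE 0.18, edgeR adjusted p = 0.0322), and the age estimates moved to 0.66 for Cd74 (adjusted p = 0.139), 0.57 for H2-Aa (adjusted p = 0.458), 0.54 for H2-Ab1 (adjusted p = 0.464) and 0.40 for H2-Eb1 (adjusted p = 0.589). Ciita ran from 1.78 over 2.08 to 2.55 CPM in young libraries, a log2 fold change with age of -0.15 with an interval from -0.51 to 0.20.

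Old anti-miR-mix libraries were next compared with young libraries, which joins age and treatment and shares its libraries with both comparisons above. Here 5 of 7 members were called higher (Cd74, H2-Aa, H2-Ab1, H2-Eb1 and H2-DMb1), against 4.57% of all genes. At an unadjusted p under 0.05 in edgeR, 6 of 7 were higher, against 11.3% of all genes, and 0 of 7 had groups that did not overlap, against 2.42%. The log2 fold changes were 1.64 for Cd74 (SE 0.32, edgeR adjusted p = 0.00222), 1.78 for H2-Aa (SE 0.35, adjusted p = 0.00306), 1.61 for H2-Ab1 (SE 0.35, adjusted p = 0.00623) and 1.40 for H2-Eb1 (SE 0.33, adjusted p = 0.0114). H2-DMb1 had 1.00 (SE 0.19, edgeR adjusted p = 0.00197), and 7 of 7 treated libraries lay above the young median. H2-DMa had 0.34 (SE 0.10, edgeR adjusted p = 0.0564), which passed in DESeq2 (adjusted p = 0.0266) and, in edgeR, without young replicate 2 (0.40, adjusted p = 0.0203), young replicate 4 (0.38, adjusted p = 0.0452) or old anti-miR-mix replicate 7 (0.40, adjusted p = 0.00903). Ciita had -0.04, with an interval from -0.38 to 0.29.

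Leaving out any 1 library kept 5 or 6 members called. Within processing groups 1 to 4, the difference of old anti-miR-mix from young libraries in Cd74 was 0.90, 1.39, 1.53 and 1.45 on the log2 CPM scale. The corresponding differences were 0.46, 1.23, 1.86 and 1.75 for H2-Aa, 0.60, 1.24, 1.61 and 1.26 for H2-Ab1, 0.08, 0.90, 1.64 and 1.16 for H2-Eb1 and 0.68, 1.35, 0.87 and 0.73 for H2-DMb1. Without old anti-miR-mix replicates 3 and 4, 3 members (Cd74, H2-Aa and H2-DMb1) were called, and without the libraries of processing group 3, 2 members (Cd74 and H2-DMb1). These settings called 709 and 347 of all 19286 genes.

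**Figure D3:**
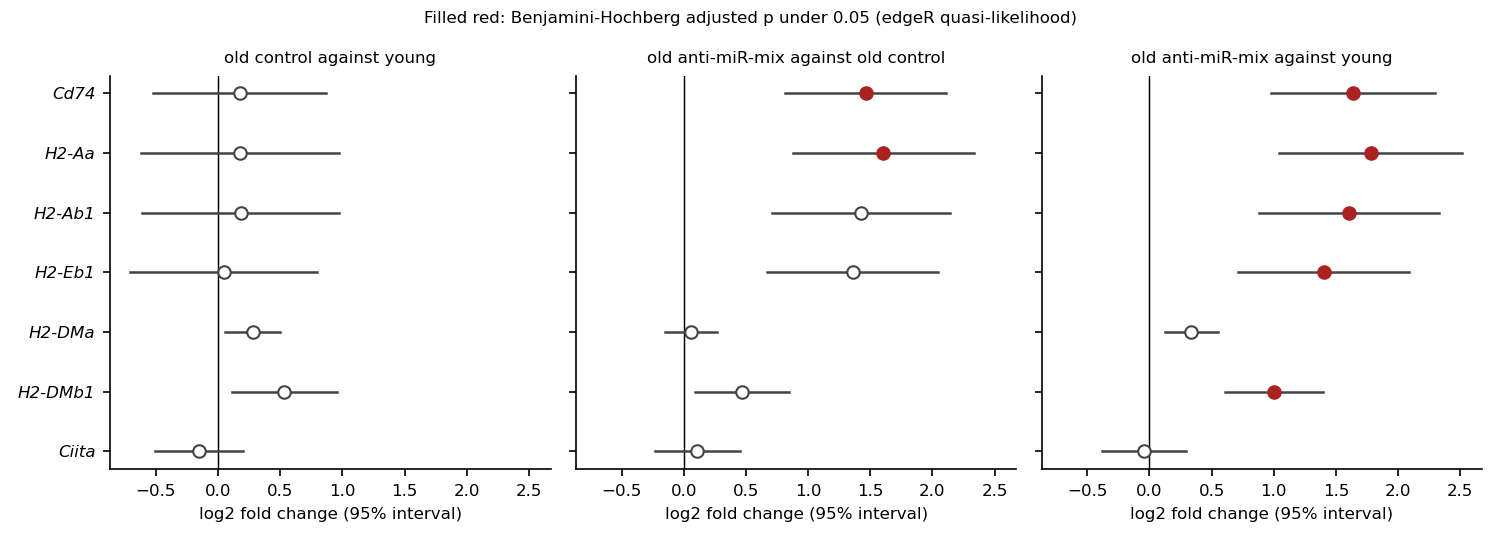
Log2 fold changes of the 7 members with 95% intervals in the 3 comparisons, from the edgeR quasi-likelihood fit; filled red points have a Benjamini-Hochberg adjusted p under 0.05. The number of filled points is 0 with age, 2 with treatment and 5 for old anti-miR-mix against young, and Ciita lies close to 0 in each panel.

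In order of mean log2 CPM, Cd74, H2-Aa, H2-Ab1, H2-DMa and H2-DMb1 were lowest in young, intermediate in old control and highest in old anti-miR-mix libraries, and H2-Eb1 had 1.09 in both young and old control libraries and 2.26 in old anti-miR-mix libraries. The young and old control means of Cd74 (3.55 ± 1.37 and 4.05 ± 0.745 RPKM, SD, n = 6 each) differed by less than 1 SD of the young libraries, as did those of H2-Aa, H2-Ab1 and H2-Eb1, and the means of H2-DMa in both old groups (3.45 ± 0.06 and 3.49 ± 0.25 log2 CPM, SD, n = 6 and 7) were also within 1 SD. Ciita had its highest mean in young (1.11 ± 0.18), then old anti-miR-mix (1.04 ± 0.35) and old control (0.94 ± 0.35 log2 CPM, SD, n = 6, 7 and 6), all within 1 SD of the old groups.

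The spread between libraries was far wider for the chains and Cd74 than for most genes. Among old anti-miR-mix libraries the SD of log2 CPM was 0.84 for Cd74, 1.00 for H2-Aa, 0.93 for H2-Ab1 and 0.88 for H2-Eb1, which exceeded the SD of 99.3%, 99.6%, 99.5% and 99.4% of 15960 genes with a mean of at least 20 reads, whose median was 0.13. Counting noise alone gives an SD of about 0.06 for Cd74 and 0.11 for H2-Eb1. The edgeR estimate of the variation between libraries (biological coefficient of variation) was 37.3% for Cd74 and 41.7% for H2-Aa, against 12.3% for H2-DMa, 17.1% for Ciita and a median of 7.66% over the same 15960 genes. From lowest to highest library, Cd74 covered a 6.55-fold range among old anti-miR-mix libraries and a 1.57-fold range among old controls, while Ciita covered 1.81-fold and 1.89-fold.

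Cd74, H2-Aa, H2-Ab1 and H2-Eb1 varied together. Over all 19 libraries, Pearson's r of log2 CPM between these 4 genes was 0.91 to 0.98 (6 pairs), and with the group means removed it was 0.84 to 0.96. With these 4 genes, H2-DMb1 had r between 0.68 and 0.79, H2-DMa between 0.35 and 0.50 and Ciita between 0.35 and 0.47. With group means removed, the values for Ciita were 0.58 to 0.65 and those for H2-DMa 0.10 to 0.31. The points share library, depth and processing group, and old anti-miR-mix replicates 3 and 4 lie at the upper end for all 4 genes, so these values are a description. Per length, the ratio of Cd74 to H2-Aa was 4.95 in young, 5.36 in old control and 4.79 in old anti-miR-mix libraries, and H2-Aa to H2-Ab1 was 0.941, 0.939 and 1.03. The ratio of Cd74 to Ciita was 15.2, 20.6 and 45.8 in the same order, and its log2 value overlapped between old control (4.06 to 4.81) and old anti-miR-mix libraries (4.51 to 6.51).

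**Figure D4:**
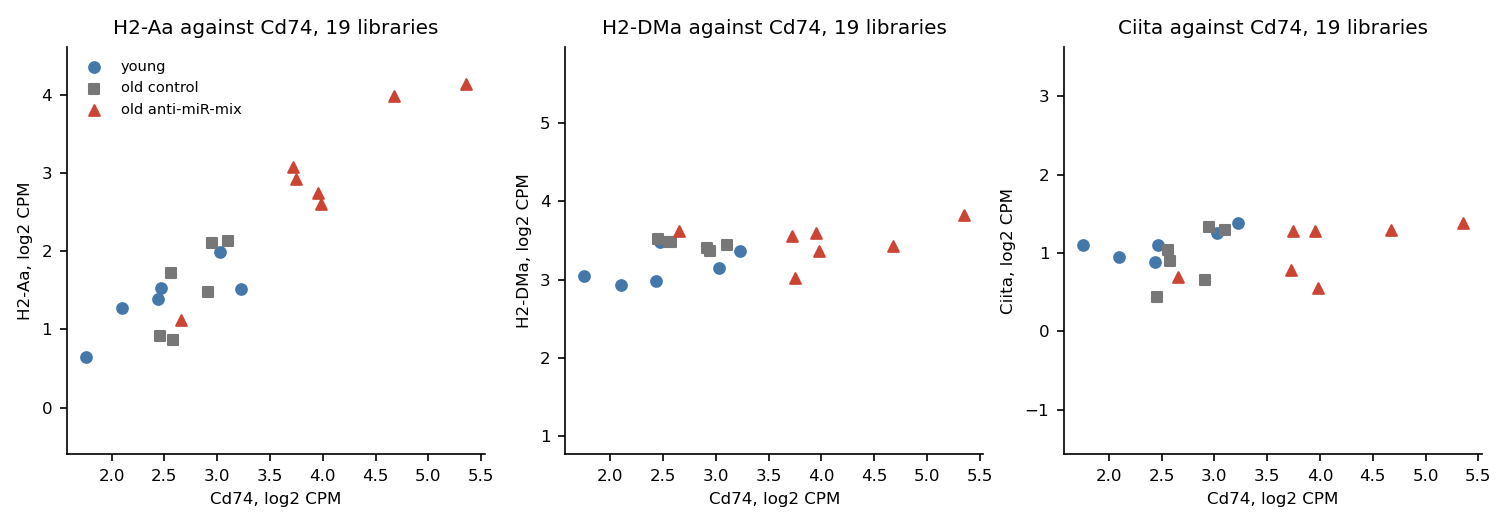
Log2 CPM of H2-Aa, H2-DMa and Ciita against that of Cd74 in the 19 libraries, with symbols for the 3 groups and vertical axes of the same span. H2-Aa rises with Cd74 over the whole range (r within 0.91 to 0.98 among the 4 chain genes), whereas H2-DMa and Ciita cover a narrow band.

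Among 15960 genes, the genes outside the 7 members whose log2 CPM over 19 libraries was most like that of Cd74 were Lat2 (r = 0.92), Dock8 (0.91), Gm8995 (0.90), Ctsh (0.90), Irf8 (0.89), Myo1g (0.89), Fam111a (0.89) and Nfe2l2 (0.89). H2-Aa, H2-Ab1 and H2-Eb1 ranked 1, 2 and 4 of all genes, while H2-DMb1 ranked 206, H2-DMa 1250 and Ciita 2197. With group means removed, Ciita ranked 397, H2-DMb1 322 and H2-DMa 2593. With group means removed the nearest were Lat2 (0.87), Snx18 (0.86), Mex3c (0.86), AW112010 (0.85), Irgm2 (0.85), Zfp429 (0.84), Gm8995 (0.83) and Adam17 (0.83). Lat2 and Gm8995 were in both sets. Irf8 is a transcription factor of microglia and other myeloid cells, and Ctsh is a lysosomal protease.

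Of 31 further genes of the class II route, 29 were tested. With treatment 2 were called higher and 0 lower in edgeR (0.669% of all genes were called higher), and at an unadjusted p under 0.05 in edgeR 14 were higher and 2 lower (7.16% of all genes were higher). With processing group as a factor or without processing group 3, 0 of the 29 were called, and without replicates 3 and 4, 1 (Lag3). Over all 19286 genes, these settings called 9, 0 and 9. The pair consisted of Ctsl, cathepsin L, which trims the invariant chain in thymic epithelium (log2 fold change 0.25, SE 0.04, edgeR adjusted p = 0.0102), and Lag3, a counterreceptor that binds class II (0.66, SE 0.10, adjusted p = 0.00711). Ctss, cathepsin S, which degrades the invariant chain in myeloid cells, had 118 ± 20.2 CPM in old control (SD, n = 6) and 177 ± 35.9 CPM (SD, n = 7) in old anti-miR-mix libraries, with a log2 fold change of 0.58 (SE 0.15, edgeR adjusted p = 0.0751). The costimulatory ligand Cd86 had 0.55 (SE 0.14, edgeR adjusted p = 0.0714). None of the 7 enhanceosome genes (Rfx5, Rfxap, Rfxank, Nfya, Nfyb, Nfyc and Creb1) was called, with log2 fold changes from -0.13 for Nfyb (SE 0.04, edgeR unadjusted p = 0.00279, adjusted p = 0.153) to 0.19 for Nfya (SE 0.07, unadjusted p = 0.0116, adjusted p = 0.288). With treatment 0 of 7 tested genes of the interferon gamma axis were called, and Ifng itself had at most 3 reads in any library and 0 in 14 of 19.

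With age 1 of the 29 was called, namely Lag3 (0.50, SE 0.11, edgeR adjusted p = 0.0179), against 1.32% of all genes called higher. At an unadjusted p under 0.05 in edgeR, 4 of the 29 were higher and 5 lower with age. Of all 19286 genes, 3483 passed that threshold in either direction. In old anti-miR-mix against young libraries 9 were called higher and 1 lower, against 4.57% of all genes called higher. With processing group as a factor 9 were called higher, without replicates 3 and 4 it was 5, and without processing group 3 it was 3. Over all genes, these settings called 867, 525 and 292 higher, against 881 in the main fit. The 9 were the class II related chains H2-Oa (0.94, edgeR adjusted p = 0.0418) and H2-Ob (1.00, adjusted p = 0.00532), which form the H2-O inhibitor of H2-DM, the proteases Ctss (0.92) and Ctsl (0.22), the thiol reductase Ifi30 (0.72), the ligand Cd86 (0.87), Lag3 (1.17), the interferon receptor chain Ifngr1 (0.27) and the inhibitor of cytokine signalling Socs1 (0.72). Creb1 was lower (-0.16, SE 0.04, edgeR adjusted p = 0.0341). H2-Oa, H2-Ob and Socs1 were near the lower limit of measurement, with at most 59 reads in any library.

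Marker lists of cells that can carry class II were set beside these values. With treatment, 0.669% of all genes were called higher in edgeR, the share that the marker counts stand beside. Microglial markers summed to 403 to 456 CPM in old control and 434 to 565 CPM in old anti-miR-mix libraries, with 2 of 9 called higher with treatment (among them Csf1r, a growth factor receptor of microglia, with a log2 fold change of 0.32). Markers of activated microglia summed to 117 to 162 CPM in old control and 156 to 283 CPM in old anti-miR-mix libraries, and 6 of 8 were called higher with a median log2 fold change over the list of 1.31. They included Itgax, an integrin of dendritic cells and activated microglia (1.92, SE 0.35, edgeR adjusted p = 0.0152), Cst7 (2.10, SE 0.40, adjusted p = 0.0206) and Spp1 (1.94, SE 0.38, adjusted p = 0.0221). Old anti-miR-mix replicate 1, which had class II at the control level, had 166 CPM of this list, above all 6 old controls, and replicate 6, with a class II sum of 30.1 CPM above all old controls, had 156 CPM, inside the old control range. In old control libraries most of this sum was Axl and Lpl, with means of 67.8 and 29.1 CPM. Cst7, Itgax and Clec7a had means of 1.89, 2.84 and 4.85 CPM there, so the sum says little about them. With treatment, 0 of 8 markers of border macrophages, 0 of 7 of dendritic cells, 0 of 3 of B cells and 0 of 5 of T cells passed in edgeR, while DESeq2 called 1 border macrophage marker (Ms4a7, DESeq2 adjusted p = 0.0236) and 1 dendritic cell marker (Ccr7, DESeq2 adjusted p = 0.00395). At a share of 0.669%, 0 calls in lists this short do not set them apart from other genes. Their log2 fold changes were positive for 7 of 8, 4 of 7, 2 of 3 and 5 of 5 markers. In old anti-miR-mix against young libraries, where 5 of 7 members and 4.57% of all genes were called higher, edgeR called higher 8 of 9 microglial, 6 of 8 activated microglial, 2 of 8 border macrophage, 2 of 7 dendritic cell, 1 of 3 B cell and 2 of 5 T cell markers. With treatment, 0 markers of any list were called with processing group as a factor, without replicates 3 and 4 or without processing group 3, against 8 of 68 with all libraries and no factor. Over all 19286 genes, these settings called 9, 9 and 0 with treatment. In old anti-miR-mix against young libraries these settings left 21, 14 and 11 of 68 markers called higher, against 21 in the fit without them. Over all genes they called 867, 525 and 292 higher there, against 881. Border macrophage markers summed to 5.93 to 7.76 CPM in old control and 5.66 to 12.9 CPM in old anti-miR-mix libraries, and dendritic cell markers to 23.7 to 28.3 and 24.1 to 31.6 CPM. Most of the dendritic cell sum was Flt3 and Zbtb46, with means of 12.7 and 10.9 CPM in old control libraries. Their log2 fold changes with treatment were 0.09 and -0.04, so the sum says little about the other markers of that list.

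B cell markers summed to 16.3 to 26.4 CPM in old control and 17.2 to 37.4 CPM in old anti-miR-mix libraries, most of it Ighm, with at most 9 reads of Cd79a and 7 of Ms4a1 per library. Ms4a1 was at 0 in 5 libraries, Xcr1, a dendritic cell marker, in 6, and the T cell markers Cd3d and Cd3g in 2 each. T cell markers summed to 2.73 to 4.67 and 3.97 to 6.27 CPM. Replicate 3, the highest for class II, had the highest B cell sum (37.4 CPM), and replicate 4 had the highest sums of activated microglial (283 CPM), dendritic (31.6 CPM) and T cell markers (6.27 CPM). Ccr7, a receptor of migrating dendritic cells, had 1 to 7 reads in old control and 3 to 87 reads in old anti-miR-mix libraries (log2 fold change 2.56, SE 0.62, edgeR adjusted p = 0.0635). The part of these cell types in the class II values was not tested. No list of blood (0 of 4), choroid plexus (0 of 4), leptomeninges (0 of 4), CA1 pyramidal (0 of 5), CA3 pyramidal (0 of 4), dentate granule (0 of 4) or general neuronal genes (0 of 3) had a member called with treatment, where 0.669% of all genes were called higher.

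**Figure D5:**
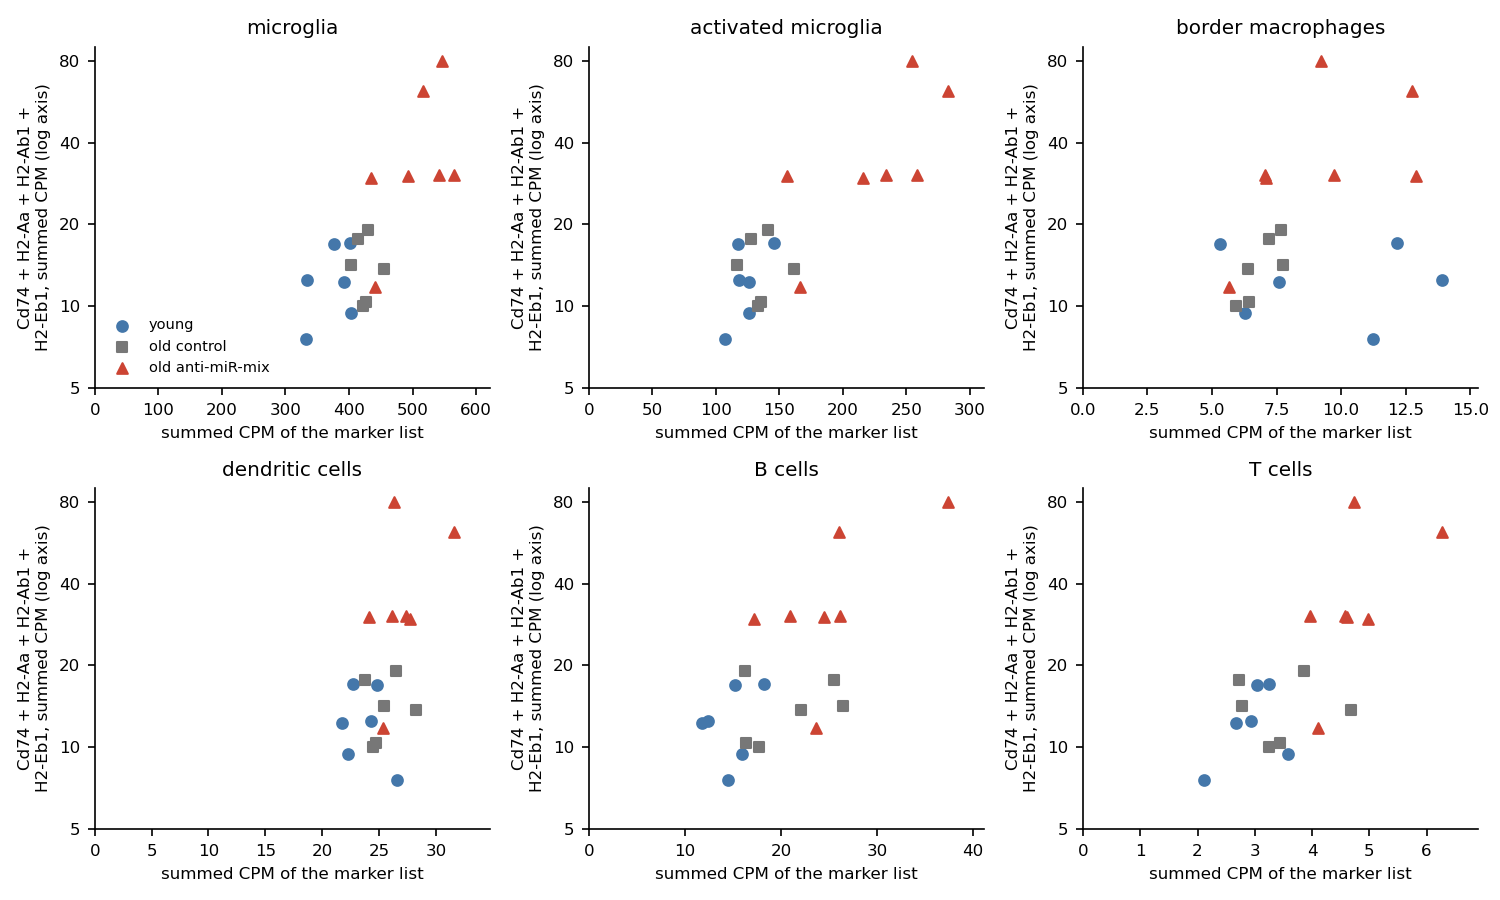
Summed CPM of Cd74, H2-Aa, H2-Ab1 and H2-Eb1 (log axis) against the summed CPM of 6 marker lists in the 19 libraries, with symbols for the 3 groups. The class II sum reaches 19.1 CPM in old control and 79.9 CPM in old anti-miR-mix libraries, and replicate 1, the lowest treated library, lies to the right of all old controls on the axis of activated microglia. In old control libraries most of the activated microglia sum is Axl and Lpl.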

How the data were processed

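RNA of the CA1 region was measured in 19 libraries (young n = 6, old control n = 6, old anti-miR-mix n = 7), grouped by their labels. Per the labels, polyA RNA was sequenced as single-end reads. Per the labels, the authors used FastQC 0.11.5, STAR 2.5.2b and featureCounts of Subread 1.5.1 with the mm10 build, and deposited raw read counts per Ensembl gene for each library (26653511 to 38908947 reads). The handling of reads with several matches is not given in the sources used here. The deposited table of log2 values (18761 genes) equals log2(CPM + 1) less a slope per gene multiplied by a whole number (1 to 4) that each library carries, with residuals up to 3.3e-08. That number, whose origin the labels do not give, defined the processing groups.

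Gene identifiers were matched to GENCODE M21 (48349 matched, 360 not). Counts were tested in R 4.3.3 with edgeR 4.0.16 (TMM, quasi-likelihood test, 1 fit of 3 groups, prior count 2 for CPM on the log2 scale) after the filter (5 or more reads in 50% or more of the libraries), which held 99.95% of reads, with Benjamini-Hochberg adjustment over 19286 genes and a threshold of 0.05. RPKM was computed from the counts and the exon length. DESeq2 1.42.0 and limma 3.58.1 gave alternatives, as did other filters, a replicate block, the processing group, and leaving out libraries. The fit was tested on simulated data. Values of the 7 members are given for all libraries, as are counts for the fixed lists, and the 8 genes most like Cd74 with and without group means were taken among genes with a mean of at least 20 reads. The members and lists were chosen with earlier results of these data known. At these totals a count of 0 allows up to 3 reads, for counting error only. Sequences came from RefSeq (GRCm38.p6).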

Additional observations from a re-analysis of the deposited data

How the results depend on the processing

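The main counts were 0, 2 and 5 of 7 members called with age, with treatment and for old anti-miR-mix against young, and 514, 129 and 1196 genes in all. With age, 1 member (H2-DMb1) was called with processing group as a factor, with that factor and old control replicates 5 and 6 summed, and without processing group 3. With treatment, 4 members were called with no filter on low counts, with the DESeq2 test and with a replicate block, and 0 with robust edgeR, limma on the deposited log2 values, only the groups compared, processing group as a factor or linear term, replicates 5 and 6 summed with or without that factor, without old anti-miR-mix replicates 3 and 4, and without processing group 3. For old anti-miR-mix against young, 3 members were called without replicates 3 and 4 and 2 without processing group 3. Leaving out 1 library gave 0 to 0, 0 to 4 and 5 to 6 members, and 214 to 746, 24 to 247 and 897 to 1268 genes. Over all genes, the age count was 323 with no filter, 914 in DESeq2, 772 with only the groups compared, 313 with replicates 5 and 6 summed, 225 with that sum and the factor, and 134 without processing group 3. The treatment count was 126 with no filter, 111 with robust edgeR, 148 with limma on the deposited log2 values and 93 with the linear term. It was 267 in DESeq2, 55 with only the groups compared, 9 with the factor, 33 with the sum, 6 with both, 9 without replicates 3 and 4, and 0 without processing group 3 (edgeR, 1589 genes at an unadjusted p under 0.05). For old anti-miR-mix against young it was 709 without replicates 3 and 4 and 347 without processing group 3. Leaving out both replicates and leaving out processing group 3 were chosen after seeing the data, as were the list counts under these settings and the factor; they leave fewer samples, and otherwise the cause was not tested. Estimates near 0 changed sign. H2-DMa with treatment was -0.0238 with the factor, -0.0120 with the sum and factor, -0.00356 without replicates 3 and 4 and -0.0459 without processing group 3, and -0.00392 to 0.125 over omissions of 1 library. Ciita with treatment was -0.0838, -0.100, -0.0228 and -0.128 in these 4 settings. Over omissions of 1 library, H2-Eb1 with age was -0.0943 to 0.149 and Ciita in old anti-miR-mix against young was -0.109 to 0.0249. Of the members' log2 fold changes over all settings, 617 kept direction and side of the threshold, 40 fell short of it, 19 newly passed it and 17 changed sign. Same-numbered libraries had correlated deviations above 0.1 in 2, 3 and 1 of 6 pairs with age, with treatment and for old anti-miR-mix against young. In the same order, 2, 4 and 1 of 6 matched their own number best. These values do not settle whether replicate numbers pair the samples. The replicate block gave 249 genes with treatment, against 129 in the main fit. H2-DMb1 had the lowest counts of the members, at 19 to 106 reads per library.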
